A study of Mus musculus with 16 samples.

Results

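The BCL2 family of apoptosis regulators was described by 10 genes (Bcl2, Bcl2l1, Mcl1, Bax, Bak1, Bbc3, Pmaip1, Bcl2l11, Bid and Bad) of the 33072 genes in the count table. The members were given as a list of mouse symbols, and all 10 were found among the Ensembl GRCm38 identifiers of the table. RNA had been sequenced from a pair of cell lines grown from the same BALB/c mouse mammary carcinoma, the metastatic line 4T1 and the non-metastatic line 67NR. Each line was kept for 24 h in fresh medium with serum and either vehicle or 15 µM CIX, a synthetic inhibitor of the phospholipase cPLA2α. This gave 4 groups of 4 biological replicates, named here by cell line, treatment and the sample number of the labels (1 to 16). Every comparison between the lines rests on 1 line of each kind, so that metastatic ability and all else in which the lines differ cannot be told apart. The samples held between 21715700 and 29450629 estimated counts.

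Proteins of the BCL2 family control whether the outer membrane of the mitochondria is breached, the step that commits most cells to apoptosis. Survival members bind and restrain the effectors BAX and BAK, which otherwise form pores in that membrane and let cytochrome c out to activate caspases. The BH3-only members relay stress signals by occupying the survival members or by activating the effectors directly. Carcinoma cells often depend on 1 or few survival members, and MCL1 in particular is a short-lived protein whose amount follows its production closely. RNA was measured here, and neither the proteins nor cell death were.

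The survival members were Bcl2 (ENSMUSG00000057329, chr1:106538178-106714274, minus strand), Bcl2l1, which encodes BCL-XL (ENSMUSG00000007659, chr2:152780668-152831728, minus strand), and Mcl1 (ENSMUSG00000038612, chr3:95658788-95663176, plus strand). The effectors were Bax (ENSMUSG00000003873, chr7:45461697-45466898, minus strand) and Bak1 (ENSMUSG00000057789, chr17:27019810-27029009, minus strand). The BH3-only members were Bbc3, which encodes PUMA (ENSMUSG00000002083, chr7:16308393-16318205, plus strand), Pmaip1, which encodes NOXA (ENSMUSG00000024521), Bcl2l11, which encodes BIM (ENSMUSG00000027381, chr2:128126038-128162547, plus strand), Bid (ENSMUSG00000004446, chr6:120891930-120916853, minus strand) and Bad (ENSMUSG00000024959, chr19:6941861-6951899, plus strand). Positions are on GRCm38 from GENCODE M21, which gave the members between 2 and 9 transcripts each. The table sums transcripts to genes, so that spliced forms with opposite roles, as known for Bcl2l1 and Bcl2l11, were not separated. On the opposite strand, Bak1 overlapped Ggnbp1, Bid overlapped Bcl2l13 and Gm17812, and Bad overlapped Gpr137. The kit kept the strand, and how strand was set in the counting is not given in the sources used here.

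The sequences before the transcription start are shown for Bcl2 and Bid, because these were the members with the largest differences in CIX response between the lines. They are the 250 bases before the RefSeq start on GRCm38.p6, written 5′ to 3′ on the strand of the gene, at chr1:106714291-106714540 (minus strand) for Bcl2 and chr6:120916825-120917074 (minus strand) for Bid. The Bid window overlaps the gene as placed by GENCODE M21, which begins on this strand at position 120916853. Capitals mark GC boxes (GGGCGG on either strand), the letters to which SP1 and related factors are known to bind.
Bcl2: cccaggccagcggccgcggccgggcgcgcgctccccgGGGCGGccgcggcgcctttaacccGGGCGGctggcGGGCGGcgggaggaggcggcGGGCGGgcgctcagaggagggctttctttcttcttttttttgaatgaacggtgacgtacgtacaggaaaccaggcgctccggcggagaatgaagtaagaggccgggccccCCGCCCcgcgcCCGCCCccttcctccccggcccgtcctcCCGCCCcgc
Bid: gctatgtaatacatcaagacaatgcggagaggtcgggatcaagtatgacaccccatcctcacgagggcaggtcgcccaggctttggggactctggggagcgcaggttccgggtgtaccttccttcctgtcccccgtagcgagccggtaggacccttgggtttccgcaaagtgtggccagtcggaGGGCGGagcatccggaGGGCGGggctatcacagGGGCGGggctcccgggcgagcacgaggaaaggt
The Bcl2 window held 7 GC boxes in 74.8% G and C, and the Bid window held 3 in 63.6%. RefSeq windows were matched for 9 of the 10 members (15 windows, since some genes have several starts), and Pmaip1 had none. A GC box was found in 10 of the 15 windows, in 7 of the 9 genes, against 32.74% of 32851 windows of the same length over all genes. The letters CCAAT were found in the windows of Bbc3, Bcl2l11 and Bad (33.85% of all windows), CACGTG in Bax and Bbc3 (6.021%) and TGACGT in Bcl2 (6.469%), each read on both strands and none of the CACGTG or TGACGT matches overlapping a GC box. TATAAA was in 0 of the 15 windows (12.37% of all windows). These matches describe letters and not binding.

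Levels of a gene are given as CPM, counts set to a common library size with TMM factors over all 16 samples. Levels are compared between genes only as approximate TPM, which also divide by transcript length. In TPM the effector Bax had the highest level of the 10 members in each of the 4 groups, from 188 ± 30.4 (SD) in 4T1 cells under CIX to 452 ± 98.9 in vehicle treated 67NR cells. Bcl2l1 and Mcl1 carried nearly all RNA of the 3 survival members (Bcl2, Bcl2l1 and Mcl1), and Bcl2l2, a survival gene outside the 10, was at 21.3 to 29.3 TPM as a mean of a group. Their TPM in vehicle treated 67NR cells was 125 ± 13.7 and 109 ± 3.02, and in vehicle treated 4T1 cells 111 ± 15.9 and 65.3 ± 7.42. Bcl2 held only between 1.35% and 2.51% of the TPM summed over these 3 as a mean of a group, and was ninth of 10 in each group. Pmaip1 was last in each group, with between 0 and 9 estimated counts in a sample. A level of 3 counts, taken here as the floor, corresponds to between 0.102 and 0.138 CPM, and Pmaip1 was above 3 counts only in 67NR CIX sample 14 (0.174 CPM) and 4T1 CIX samples 8 and 16 (0.386 and 0.282 CPM). It passed the filter on low values in no comparison, so that 9 of the 10 members were tested.

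**Figure D1:**
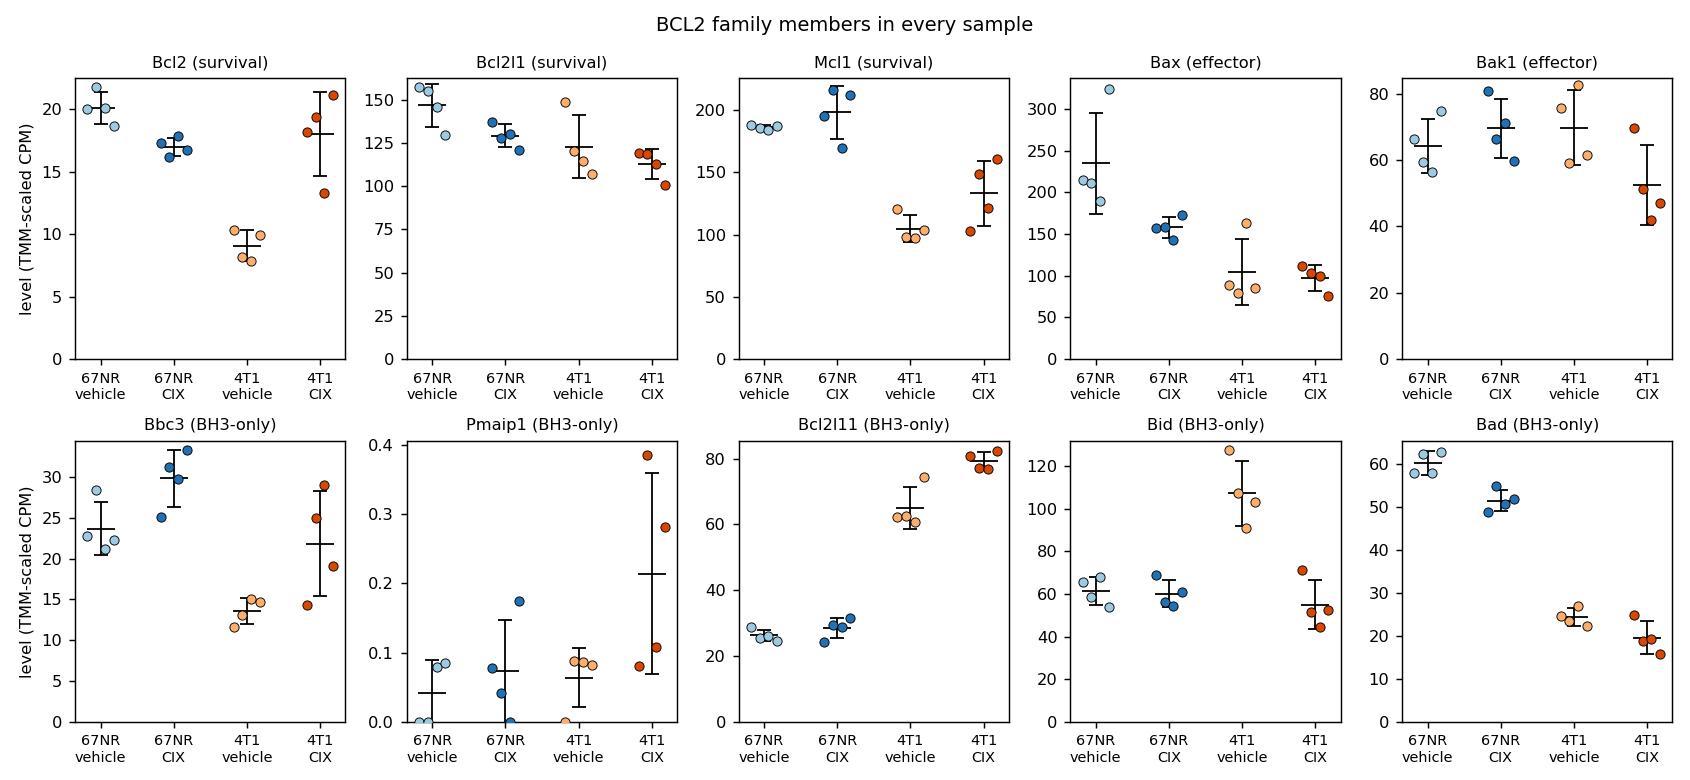
Level of the 10 members in each of the 16 samples (TMM-scaled CPM, each panel from 0), with 4 points per group and the mean ± SD as a bar. Bcl2 of 4T1 cells lay between 7.87 and 10.3 CPM under vehicle and between 13.3 and 21.1 CPM under CIX, and Bid lay between 90.9 and 128 CPM under vehicle and between 44.4 and 71.2 CPM under CIX.

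The lines differed in their markers of cell type. The 4T1 samples held the epithelial genes Epcam (311 CPM or more under vehicle), Cdh1, Krt8 and Krt18. Of the basal keratins, Krt5 was at or under 3 counts and Krt14 at 9 to 15 counts under vehicle and 30 to 112 under CIX. By contrast, the 67NR samples, also of a mammary carcinoma, were at 1.07 to 5.19 CPM summed over these 6 genes and had 5977 to 9959 CPM over 5 mesenchymal markers. Leukocyte markers summed to at most 1.68 CPM and endothelial markers to at most 2.69 CPM in any sample. In 4T1 cells the mesenchymal sum was 2484 to 3298 CPM under vehicle and 4306 to 5210 CPM under CIX, without overlap, and in 67NR cells 5977 to 6922 and 9091 to 9959 CPM. Nearly all of this sum was Vim and Fn1. Vim was called higher under CIX in 4T1 cells (log2 fold change 1.24, limma-voom adjusted p = 4.27e-05) and differed by 0.58 in 67NR cells (adjusted p = 0.00133). Not every mesenchymal marker moved this way, since Pdgfrb of 67NR cells was at 41.9 to 60.3 CPM under vehicle and 28.7 to 34.9 CPM under CIX (log2 fold change -0.76, adjusted p = 0.00425). Epcam was called lower in 4T1 cells under CIX, at 175 to 203 CPM (log2 fold change -0.78, limma-voom adjusted p = 1.27e-04). Among the other epithelial markers, Krt18 was at 1015 to 1111 CPM under vehicle and 1172 to 1230 CPM under CIX (log2 fold change 0.14, adjusted p = 0.106), and Krt8 and Cdh1 overlapped between the treatments with differences of 0.43 and -0.29. The sum over the 6 genes was 2411 to 2609 CPM under vehicle and 2518 to 2763 CPM under CIX. The part of these markers in the differences of the BCL2 family under CIX was not tested.

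The vehicle samples showed how the family differed between the lines before treatment. Against 67NR cells, 4T1 cells had lower RNA of the survival members Bcl2 and Mcl1 and of the BH3-only members Bbc3 and Bad, and higher RNA of the BH3-only members Bcl2l11 and Bid. These 6 of the 9 tested members were called at an adjusted p-value below 0.001 by limma-voom, 2 higher and 4 lower. Of all 11037 genes tested 40% were called, 20.4% higher and 19.6% lower. In 7 of the 9 the samples of both lines did not overlap, which held for 61.6% of all genes, and DESeq2 called 7, against 52% of all genes, and edgeR 6, against 38.9%. The median log2 fold change was -0.80 over the 9 members and -0.01 over all genes tested. The epithelial markers also differed between the lines (2411 to 2609 CPM in 4T1 against 1.78 to 5.19 CPM in 67NR vehicle samples), and their part in the family's differences was not tested. RNA of a culture was measured, so that fewer cells with a transcript and less of it per cell cannot be told apart.

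Among the survival members, Bcl2 was at 20.03, 21.8, 20.1 and 18.7 CPM in vehicle treated 67NR samples 1, 5, 9 and 13. In 4T1 samples 3, 7, 11 and 15 it was at 10.3, 8.16, 7.87 and 9.97 CPM. All 4T1 samples thus lay below all 67NR samples, with a log2 fold change of -1.16 (SE 0.12, limma-voom adjusted p = 3.27e-05). Mcl1 was at 188, 185, 184 and 187 CPM in 67NR and at 121, 98.2, 97.1 and 104 CPM in 4T1 cells. Again no sample overlapped, and the log2 fold change was -0.84 (SE 0.09, limma-voom adjusted p = 2.87e-05). Bcl2l1 was at 157, 155, 146 and 130 CPM in 67NR and at 149, 120, 115 and 107 CPM in 4T1 cells. Its samples overlapped, and its difference of -0.28 (95% confidence interval -0.53 to -0.02, adjusted p = 0.0548) was not called.

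The effector Bax was at 214, 211, 190 and 324 CPM in 67NR and at 88.6, 78.8, 164 and 85.7 CPM in 4T1 cells. The samples did not overlap, but each line held 1 sample far above the others, 67NR sample 13 and 4T1 sample 11. The log2 fold change of -1.22 (SE 0.25) was not called by limma-voom (adjusted p = 0.00203), and without 4T1 sample 11 it was -1.45 with an adjusted p of 2.44e-04. Bax shared 11.1% of its 31-base words with other genes, foremost with Gm45808, which overlaps it on the same strand and was listed at 0 in all 16 samples. Bak1 ranged from 56.3 to 74.8 CPM in 67NR and from 59.2 to 82.5 CPM in 4T1 cells, and its difference was 0.10 (95% confidence interval -0.22 to 0.42, adjusted p = 0.541).

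Of the BH3-only members, Bcl2l11 was at 28.7, 25.6, 26.1 and 24.6 CPM in 67NR samples. It was at 62.1, 62.7, 60.8 and 74.6 CPM in 4T1 samples. Its RNA was 2.45-fold higher in 4T1 cells (log2 fold change 1.29, SE 0.10, limma-voom adjusted p = 3.77e-06). Bid, whose protein is cut by caspase-8 and so links the death receptors to mitochondria, was at 65.6, 58.7, 67.9 and 53.7 CPM in 67NR and at 128, 108, 90.9 and 103 CPM in 4T1 cells. No sample overlapped, and Bid was 1.72-fold higher in 4T1 cells (log2 fold change 0.79, SE 0.12, limma-voom adjusted p = 3.45e-04), a call that was lost without 67NR sample 5, 4T1 sample 7 or 4T1 sample 15 (adjusted p between 0.00124 and 0.00144). Bad, which is held inactive by survival signalling, was at 57.8, 62.4, 57.9 and 62.8 CPM in 67NR and at 24.6, 23.4, 27.0 and 22.2 CPM in 4T1 cells. It was 2.50-fold lower in 4T1 cells (log2 fold change -1.32, SE 0.09, limma-voom adjusted p = 2.43e-06). Bbc3, a target of p53, was at 22.8, 28.4, 21.2 and 22.3 CPM in 67NR and at 11.6, 13.1, 15.1 and 14.7 CPM in 4T1 cells. Its log2 fold change was -0.80 (SE 0.13, limma-voom adjusted p = 4.96e-04), and the call was lost whichever single sample was left out (adjusted p between 0.00101 and 0.00246). The calls of Bcl2, Mcl1, Bcl2l11 and Bad held in all 8 fits that each lacked 1 sample. Over all genes these fits called 3496 to 4367, against 4418 with all 8 samples.

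The treatment of 4T1 cells with CIX was compared over the 8 samples of that line. The members that moved furthest were Bcl2, which was 1.93-fold higher under CIX, and Bid, which was 2.00-fold lower. By limma-voom on these 8 samples, 0 of the 9 tested members were called at an adjusted p below 0.001. Of all 11660 genes tested 9.31% were called. At an unadjusted p below 0.05 there were 6 members, against 51.1% of all genes. By edgeR 0 were called (8.83% of all genes) and by DESeq2 2, Bcl2 and Bid (26.5%). The groups did not overlap for 3 members, against 40% of all genes. At an adjusted p below 0.05 limma-voom called 4 members (Bcl2, Bbc3 and Bcl2l11 higher, Bid lower), against 42.7% of all genes. When 1 sample was left out, the adjusted p ranged from 0.00786 to 0.118 for Bbc3 and from 0.0252 to 0.116 for Bcl2l11. The median log2 fold change was -0.06 over the members and -0.01 over all genes.

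Bcl2 was at 18.2, 19.4, 13.3 and 21.1 CPM in 4T1 CIX samples 4, 8, 12 and 16. Each of these was above the highest of the vehicle samples (10.3 CPM), and the lowest of them, sample 12, was still apart from vehicle. The log2 fold change was 0.95 (SE 0.19, limma-voom adjusted p = 0.00328, DESeq2 adjusted p = 4.55e-06). With this Bcl2 of treated 4T1 cells overlapped the level of both 67NR groups. Mcl1 was at 103, 149, 121 and 161 CPM under CIX, so that sample 4 lay within the vehicle samples. Its difference was 0.31 (95% confidence interval -0.02 to 0.64, adjusted p = 0.119). Bcl2l1 was at 119, 119, 113 and 100.5 CPM under CIX and overlapped vehicle (log2 fold change -0.13, 95% confidence interval -0.41 to 0.14, adjusted p = 0.402).

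Bid was at 71.2, 51.5, 44.4 and 52.5 CPM in 4T1 CIX samples 4, 8, 12 and 16. All were below the lowest vehicle sample (90.9 CPM) and lay on both sides of the range of 67NR cells (53.7 to 68.8 CPM over both treatments). The log2 fold change was -0.998 (SE 0.16, limma-voom adjusted p = 0.0012, DESeq2 adjusted p = 3.55e-07). Without 4T1 CIX sample 4, the highest of the treated samples, it was -1.15 and passed the threshold (limma-voom adjusted p = 4.58e-04). Bbc3 spread widely under CIX, at 14.3, 25, 29 and 19.1 CPM, and sample 4 lay within the vehicle range (log2 fold change 0.63, SE 0.22, adjusted p = 0.0477). Bcl2l11 was at 80.7, 77.2, 76.9 and 82.4 CPM, each above the highest vehicle sample (74.6 CPM), with a difference of 0.27 (SE 0.10, adjusted p = 0.0464). Bad (15.7 to 24.8 CPM) and Bak1 (41.9 to 69.8 CPM) overlapped vehicle with differences of -0.34 (adjusted p = 0.0937) and -0.44 (adjusted p = 0.0672).

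Bax was at 112, 103, 100.04 and 75.1 CPM in treated 4T1 cells and overlapped vehicle, with a difference of -0.06 (95% confidence interval -0.57 to 0.45, adjusted p = 0.847). Its sign turned without vehicle sample 11, to 0.17, or without CIX sample 16, to 0.05. Of Pmaip1, the treated samples held 2, 9, 3 and 7 estimated counts and the vehicle samples 0, 2, 2 and 2. Pmaip1 failed the filter on low values, and with no such filter its fitted log2 fold change was 1.53 (limma-voom adjusted p = 0.144), a value that depends on the constant added to counts this low.

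In 67NR cells under CIX, the members whose samples did not overlap between the treatments were Bax, Bad and Bcl2, each lower under CIX. By limma-voom 0 of the 9 tested members were called at an adjusted p below 0.001, where 0.389% of all 11558 genes tested were. There were 5 members at an unadjusted p below 0.05, against 32.8% of all genes, and edgeR and DESeq2 each called 0 (0.398% and 8.99% of all genes). At an adjusted p below 0.05 the 3 lower members were called, against 17.8% of all genes in either direction and 9.26% lower. These calls at 0.05 were lost with all 16 samples in a common fit (limma-voom adjusted p = 0.0931 for Bax, 0.163 for Bad and 0.262 for Bcl2). When 1 sample was left out, the adjusted p ranged from 0.0136 to 0.112 for Bax, from 0.0617 to 0.119 for Bad and from 0.0513 to 0.133 for Bcl2, so that those of Bad and Bcl2 were lost in all 8 such fits. The samples of these 3 did not overlap, against 23.3% of all genes in either direction and 10.6% lower. Over all 9 the median log2 fold change was -0.05 and over all genes -0.01. The number of genes called was far below that in 4T1 cells, so that a count of 0 lies near the background.

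Bax was at 158, 159, 142 and 173 CPM in 67NR CIX samples 2, 6, 10 and 14, all below the lowest vehicle sample (190 CPM). The log2 fold change was -0.56 (SE 0.17, limma-voom adjusted p = 0.0475). Bad was at 48.7, 54.8, 50.6 and 51.8 CPM, below the lowest vehicle sample of 57.8 CPM, with a difference of -0.24 (SE 0.07, adjusted p = 0.0461). Bcl2 was at 17.3, 16.2, 17.9 and 16.8 CPM, below the lowest vehicle sample of 18.7 CPM (log2 fold change -0.26, SE 0.08, limma-voom adjusted p = 0.04997). The differences of the remaining tested members were -0.20 for Bcl2l1 (adjusted p = 0.0872), 0.32 for Bbc3 (adjusted p = 0.102), 0.10 for Bak1, 0.09 for Bcl2l11, 0.06 for Mcl1 and -0.05 for Bid. Of these, Bid had a 95% confidence interval of -0.27 to 0.17 and Mcl1 of -0.12 to 0.25.

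**Figure D2:**
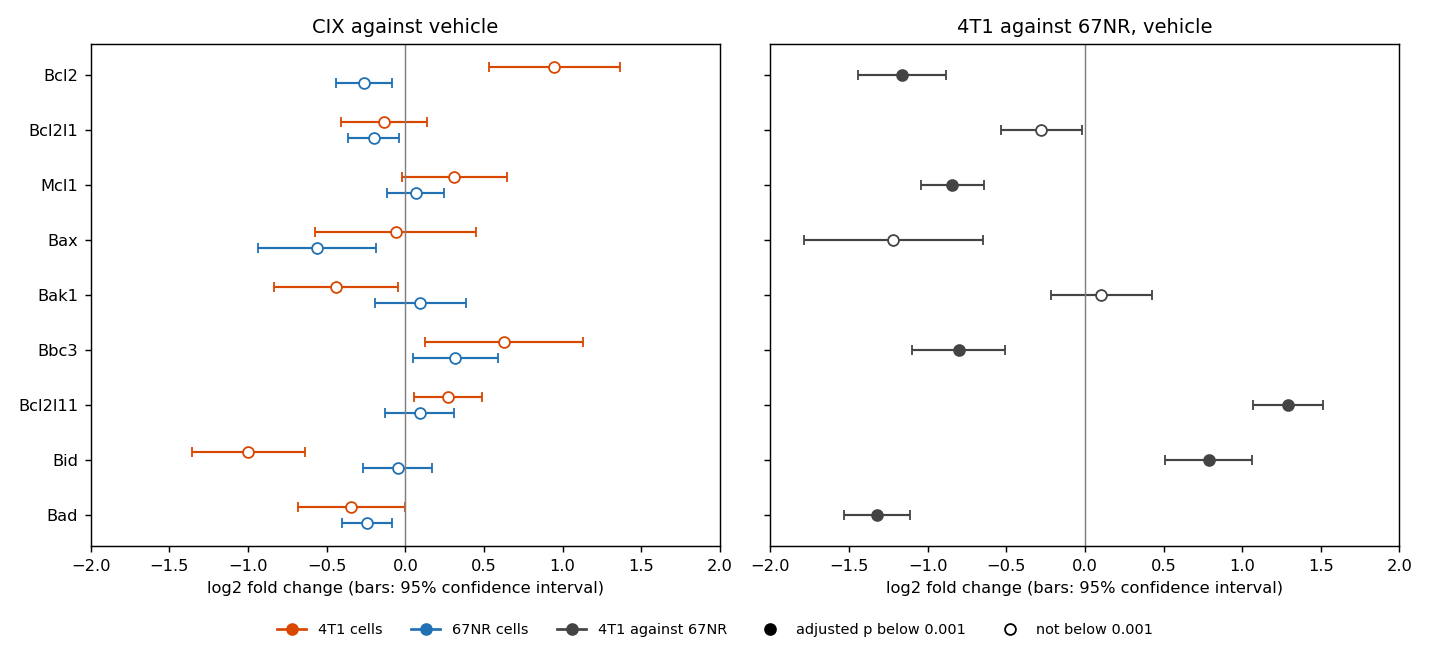
Log2 fold change of the 9 tested members with its 95% confidence interval, under CIX in 4T1 (orange) and 67NR cells (blue) on the left, and in vehicle treated 4T1 against 67NR cells on the right. Filled points passed an adjusted p of 0.001, which held for 0 members under CIX in either line and for 6 between the lines; Bcl2 stood at 0.95 in 4T1 and at -0.26 in 67NR cells under CIX.

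Whether the response to CIX differed between the lines was tested with an interaction term over all 16 samples. By limma-voom the response of Bcl2 was called, with log2 fold changes under CIX of 0.95 in 4T1 and -0.26 in 67NR cells. Neither change was called at 0.001 in the limma-voom fit of its own line (adjusted p = 0.00328 and 0.04997). The difference between the log2 fold changes was 1.204 (SE 0.20, 95% confidence interval 0.79 to 1.62, limma-voom adjusted p = 3.47e-04). With this 1 of the 9 tested members was called, where 7.86% of all 12609 genes tested were, 4.81% with a higher response in 4T1 cells. The split over all genes depended on the scaling, with 606 higher and 385 lower in this fit, 490 and 417 with library size alone, and 491 and 548 on log2(TPM + 1). At an adjusted p below 0.05 there were 2 (29.3% of all genes), DESeq2 called 2 (15.7%) and edgeR 1 (8.03%). When each sample was left out in turn, the call held in 13 of 16 cases and was lost without 67NR vehicle sample 5 (adjusted p = 0.00102), 4T1 vehicle sample 7 (0.00126) or 4T1 CIX sample 8 (0.00101), while the difference stayed between 1.12 and 1.35. The call was also lost with limma on log2(TPM + 1), where the difference was 0.88 (adjusted p = 0.00144). The next was Bid, whose response was lower by 0.95 in 4T1 cells (log2 difference -0.95, SE 0.20, limma-voom adjusted p = 0.00196, DESeq2 adjusted p = 1.42e-04). Bid passed the limma-voom threshold without 4T1 CIX sample 4 (difference -1.09, adjusted p = 3.12e-04). The confidence intervals of Bbc3 (-0.25 to 0.87), Mcl1 (-0.12 to 0.61), Bcl2l11 (-0.10 to 0.46), Bad (-0.43 to 0.22), Bax (-0.13 to 1.12) and Bcl2l1 (-0.23 to 0.37) included 0, and that of Bak1 was -1.01 to -0.08 (adjusted p = 0.0765).

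To set survival against death members, the TPM of the members was summed by role in each sample and described without a test. The survival sum was 239 ± 16.99 TPM in vehicle treated and 229 ± 8.32 in CIX treated 67NR cells, and 179 ± 22.7 and 178 ± 14.6 in 4T1 cells. The sum of the effectors and BH3-only members was 684 ± 92.2 and 536 ± 30.97 TPM in 67NR and 474 ± 65.6 and 382 ± 45.7 TPM in 4T1 cells. Both sums were thus lower in 4T1 than in 67NR cells on average, and the mean of the death sum was lower under CIX than under vehicle in each line. The ratio of the survival to the death sum was 0.383, 0.382, 0.398 and 0.261 in vehicle treated 67NR samples 1, 5, 9 and 13, and 0.434, 0.442, 0.426 and 0.406 under CIX. In 4T1 cells it was 0.456, 0.418, 0.281 and 0.379 under vehicle and 0.381, 0.492, 0.450 and 0.565 under CIX. All treated 67NR samples lay above all vehicle samples of that line, whereas the 4T1 samples overlapped. The lowest ratio of each line under vehicle belonged to 67NR sample 13 and 4T1 sample 11, the samples with high Bax.

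The parts of these sums moved unequally. The effector sum, most of it Bax, was 497 ± 102.6 TPM in 67NR vehicle, 352 ± 22.5 in 67NR CIX, 264 ± 78.7 in 4T1 vehicle and 224 ± 36.3 in 4T1 CIX samples. The BH3-only sum was 188 ± 11.0 and 184 ± 9.98 TPM in 67NR cells and 210 ± 17.4 and 158 ± 9.92 TPM in 4T1 cells under vehicle and CIX. Bid was the BH3-only member with the highest level in 4T1 vehicle samples (116 ± 17.7 TPM) and Bad in 67NR vehicle samples (76.5 ± 2.80 TPM). Mcl1 made up 36.7% ± 1.87 of the survival sum in 4T1 vehicle and 43.5% ± 6.11 in 4T1 CIX samples, against 45.7% ± 2.16 and 50.4% ± 3.51 in 67NR cells. These shares move with the lengths used, and with the longest transcript of each gene the mean ratios were 0.362, 0.437, 0.399 and 0.499 in the same order of groups (67NR vehicle, 67NR CIX, 4T1 vehicle, 4T1 CIX).

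**Figure D3:**
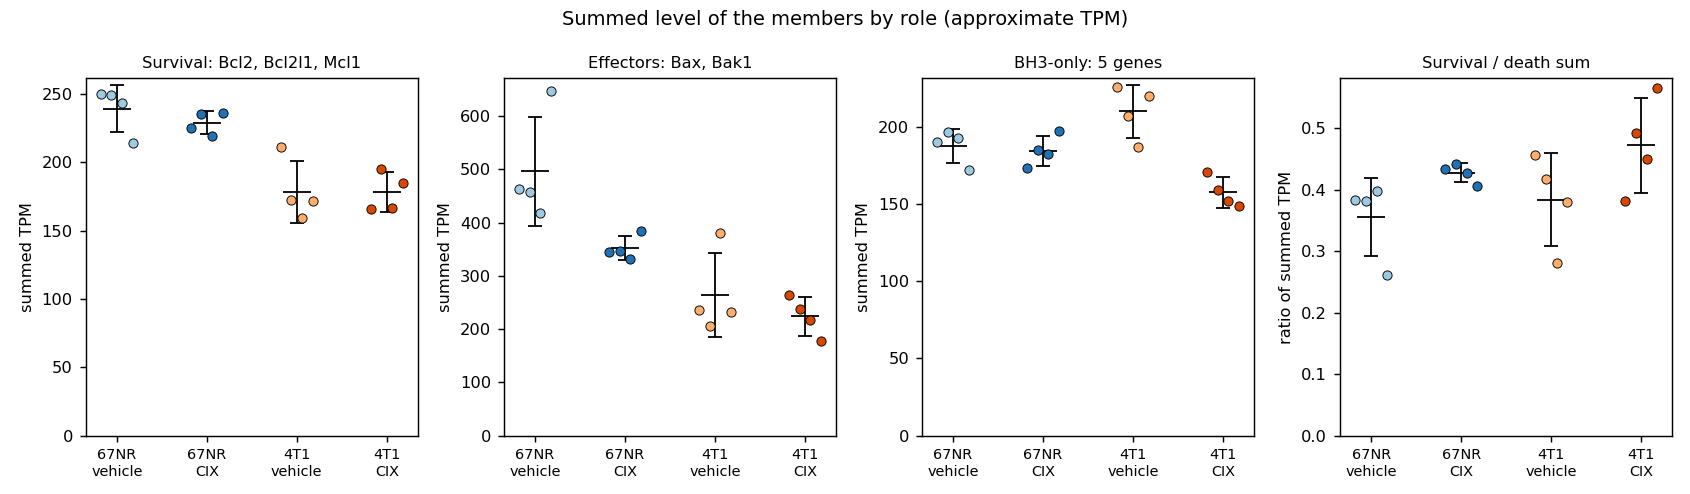
Summed TPM of the survival members, the effectors and the BH3-only members, and the ratio of the survival sum to the sum of both death classes, with 1 point per sample and the mean ± SD per group, each axis from 0. The BH3-only sum of 4T1 cells was 210 ± 17.4 under vehicle and 158 ± 9.92 under CIX, and the ratio of 4T1 cells overlapped between the treatments.

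Further genes of the family were taken from a list of 14. They included the survival gene Bcl2l2 (BCL-W), the effector relative Bok, the BH3-only genes Bmf and Bik, and Bnip3 and Bnip3l, which act as receptors for the removal of mitochondria. In vehicle treated cells 3 of the 6 tested genes were called, all higher in 4T1, and edgeR and DESeq2 each called 4. Over all genes tested these shares were 40% by limma-voom, 20.4% higher, 38.9% by edgeR and 52% by DESeq2. Bok was at 14.1 to 26.7 CPM in 4T1 and 3.60 to 5.66 CPM in 67NR cells (log2 fold change 1.93, SE 0.27, limma-voom adjusted p = 1.73e-04). Bmf was at 26.9 to 67.5 CPM in 4T1 and 4.12 to 10.2 CPM in 67NR cells (log2 fold change 2.45, SE 0.40, adjusted p = 4.63e-04), a call lost without any one of 5 of the 8 samples (67NR samples 1, 5, 9 and 13 and 4T1 sample 7). Bnip3l was 2.59-fold higher in 4T1 cells (log2 fold change 1.37, SE 0.18, limma-voom adjusted p = 1.14e-04), and shared 23.7% of its words with other genes, foremost a pseudogene, so that its counts are uncertain. Bcl2l15 and Bik failed the filter through 67NR cells, where Bcl2l15 was at 0.382 to 0.594 CPM and Bik at 0.178 to 0.317 CPM, against 10.5 to 11.7 and 0.698 to 1.56 CPM in 4T1 vehicle samples. Bnip3 (log2 fold change 1.81, adjusted p = 0.00134) was not called by limma-voom, but passed the threshold without 4T1 sample 3 (2.07, adjusted p = 4.07e-04) or 4T1 sample 11 (1.504, adjusted p = 4.94e-04).

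Under CIX 0 of the 8 tested further genes were called in 4T1 cells by limma-voom, with 4 at an unadjusted p below 0.05, 0 by edgeR and 2 by DESeq2, against 9.31%, 51.1%, 8.83% and 26.5% of all genes. Bmf, which senses loss of attachment, was at 4.83 to 17.1 CPM under CIX and did not overlap vehicle (log2 fold change -1.88, SE 0.42, limma-voom adjusted p = 0.00579). Bmf was thus not called here, whereas the paper lists it among its differing genes in treated 4T1 cells. Bnip3 was lower by 1.27 (log2 fold change -1.27, SE 0.33, adjusted p = 0.0121), and 20.3% of its words were shared. Bok was higher by 0.87 (SE 0.25, adjusted p = 0.0206) and Bcl2l15 lower by 0.68 (log2 fold change -0.68, SE 0.19, adjusted p = 0.0177). In 67NR cells 0 of 6 tested genes were called by limma-voom, edgeR or DESeq2 (0.389%, 0.398% and 8.99% of all genes). At an unadjusted p below 0.05 there were 0 (32.8% of all genes). For the difference between the responses 0 of 8 were called by limma-voom and edgeR and 1 by DESeq2 (7.86%, 8.03% and 15.7% of all genes), with 2 at an unadjusted p below 0.05 (39.1% of all genes), Bmf (difference -2.40, adjusted p = 0.00612) and Bnip3 (-1.27, adjusted p = 0.0322). The remaining 6 genes of the list passed the filter in no comparison, among them the 3 near-identical copies of the survival gene Bcl2a1 (Bcl2a1a, Bcl2a1b and Bcl2a1d), which share 79.6% to 89.1% of their words with other genes and were listed at 0 in all 16 samples.

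Around the family, 6 lists of genes were followed: cytochrome c, APAF1 and caspases, the inhibitor of apoptosis proteins (IAPs) with their antagonists, death receptors with their adaptors, enzymes that turn over MCL1, activators of BH3-only genes, and mitochondrial partners. Between the vehicle treated lines, the caspase list had 3 of 6 genes called, all higher in 4T1 cells, where 40% of all genes were called and 20.4% higher. Among them was Casp6 (log2 fold change 1.48, SE 0.12, limma-voom adjusted p = 5.63e-06). The median over the list was 0.80, against -0.01 over all genes. In the death receptor list 6 of 8 were called, 5 higher and 1 lower, with a median of 1.11. Tnfrsf10b, the mouse TRAIL receptor, was at 112 to 145 CPM in 4T1 and 10.3 to 13.1 CPM in 67NR cells (log2 fold change 3.45, SE 0.13, adjusted p = 1.06e-07, 10.8% of its words shared). Fas, the receptor of Fas ligand, was at 6.20 to 11.0 CPM in 4T1 and 0.934 to 1.54 CPM in 67NR cells (log2 fold change 2.79, SE 0.28, adjusted p = 2.28e-05), and the adaptor Tradd differed by 1.90 (SE 0.12, adjusted p = 1.23e-06).

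Of the IAP list 2 of 6 tested genes were called between the lines by limma-voom and by edgeR, both lower in 4T1 cells, where 40% of all genes were called by limma-voom and 19.6% lower. DESeq2 called 4 of the 6, 2 higher and 2 lower, against 52% of all genes. The seventh, Birc3, which encodes cIAP2, failed the filter on low values through 67NR cells and so has no test here, and it ran the other way, at 73.8 to 89.1 CPM in 4T1 and 0.297 to 0.753 CPM in 67NR vehicle samples. Htra2, a mitochondrial protease that binds IAPs once released, was lower by 2.39 (log2 fold change -2.39, SE 0.13, limma-voom adjusted p = 6.23e-07), and Birc5, which encodes survivin, was lower by 1.03 (log2 fold change -1.03, SE 0.11, adjusted p = 2.42e-05). Among 5 tested activators of BH3-only genes, Trp53, which encodes p53, was at 225 to 248 CPM in 67NR and 30.8 to 43.8 CPM in 4T1 cells (log2 fold change -2.65, SE 0.11, adjusted p = 1.89e-07, 10.1% of its words shared). Foxo3 was the other one called, higher by 0.91 in 4T1 cells (SE 0.17, adjusted p = 9.83e-04), a call that was lost without any one of 7 of the 8 samples, all but 4T1 sample 3. Of the 4 MCL1 turnover genes the ligase component Btrc was called (0.82, SE 0.08, adjusted p = 2.59e-05), and of 4 tested mitochondrial partners Opa1, which shapes the inner membrane, was called (1.22, SE 0.09, adjusted p = 2.82e-06). The fifth partner, Endog, a mitochondrial nuclease, failed the filter in the same way, at 9.81 to 14.7 CPM in 4T1 and 0 to 0.0792 CPM (at most 2 counts) in 67NR vehicle samples. Birc3 and Endog were named after their values were seen. The medians over the tested genes of these lists were taken without Birc3 and Endog. They were 0.15 for the IAP list, -0.44 for the activators, 0.20 for MCL1 turnover and -0.06 for the mitochondrial partners.

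In 4T1 cells under CIX, the genes that limma-voom called in these lists were Birc5, Diablo and Cflar. Birc5 was at 49.4 to 63.7 CPM under vehicle and 124 to 139 CPM under CIX (log2 fold change 1.22, SE 0.11, limma-voom adjusted p = 9.1e-05). Survivin also serves in cell division and its RNA is known to follow the cell cycle. Diablo, which encodes the IAP antagonist SMAC, was at 41.9 to 47.0 CPM under vehicle and 26.5 to 29.8 CPM under CIX (log2 fold change -0.72, SE 0.10, adjusted p = 5.19e-04), and 18.5% of its words were shared with other genes. Its call was lost in 7 of the 8 fits without a sample, all but the one without CIX sample 4. Over all genes such fits called 269 to 974, against 1086 with all 8 samples. Cflar, which encodes the caspase-8 inhibitor FLIP, was at 155 to 172 CPM under vehicle and 99.2 to 109 CPM under CIX (log2 fold change -0.68, SE 0.08, adjusted p = 3.00e-04, 9.26% of its words shared), and its call was lost in 6 of the 8, all but those without CIX sample 4 or vehicle sample 3.

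By list, limma-voom and edgeR each called 2 of 7 genes of the IAP list and 1 of 8 death receptor genes in 4T1 cells under CIX. Of the 2 that limma-voom called in the IAP list, Birc5 encodes an IAP and Diablo an antagonist. DESeq2 called 4 in each of these lists, and 6 genes of the IAP list and 4 death receptor genes were at an unadjusted p below 0.05. For these counts and those that follow, the shares over all genes in 4T1 cells were 9.31% called by limma-voom, 8.83% by edgeR, 26.5% by DESeq2 and 51.1% at an unadjusted p below 0.05. The caspase list had 0 of 6 called by limma-voom, 0 by edgeR and 2 by DESeq2, with 4 at an unadjusted p below 0.05. Its median was -0.50, with 6 of 6 values below 0. Over all genes the median was -0.01, and 49.6% of values were above 0. Of the activators 0 of 5 were called by limma-voom and edgeR and 2 by DESeq2 (3 at an unadjusted p below 0.05, median 0.45), of MCL1 turnover 0 of 4 by limma-voom, edgeR and DESeq2 (0 at an unadjusted p below 0.05, median 0.13), and of mitochondrial partners 0 of 5 by limma-voom and edgeR and 1 by DESeq2 (3 at an unadjusted p below 0.05, median 0.06). In 67NR cells 0 genes of the 6 lists were called by limma-voom or edgeR (0.389% and 0.398% of all genes). DESeq2 called there 1 of 6 tested genes of the IAP list and 2 of 5 activators, where it called 8.99% of all genes. At an unadjusted p below 0.05 there were 4 genes of the caspase list, 2 of the IAP list, 4 activators and 2 mitochondrial partners. The death receptor and MCL1 turnover lists held 0 such genes in 67NR cells, where 32.8% of all genes had such a p.

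The response differed between the lines for Birc5 and Htra2. Birc5 was at 106 to 115 CPM in 67NR cells under vehicle and 62.4 to 85.6 CPM under CIX, opposite to its direction in 4T1 cells, and the difference of the log2 fold changes was 1.88 (SE 0.14, limma-voom adjusted p = 1.84e-06). Htra2 was at 19.6 to 29.1 CPM in 4T1 vehicle and 40.2 to 50.5 CPM in 4T1 CIX samples, and differed in response by 0.97 (SE 0.16, adjusted p = 4.27e-04). Within 4T1 cells the Htra2 change of 0.83 was not called (limma-voom adjusted p = 0.00177), whereas the paper lists Htra2 among its differing genes. Fas was at 6.20 to 11.0 CPM in vehicle and 15.7 to 18.3 CPM in CIX treated 4T1 cells, and at 0.934 to 1.54 and 0.413 to 0.609 CPM in 67NR cells, where the treated samples held 10 to 15 estimated counts. It failed the filter on low values in the comparison of 67NR cells and entered the interaction only through 4T1 cells, so that its difference of 2.09 (SE 0.37, adjusted p = 6.32e-04) is given as a value. The calls of Htra2 and Fas were lost in 8 and 11 of the 16 fits without a sample, and that of Birc5 in none. Over all genes such fits called 652 to 1047, against 991 with all 16 samples.

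**Figure D4:**
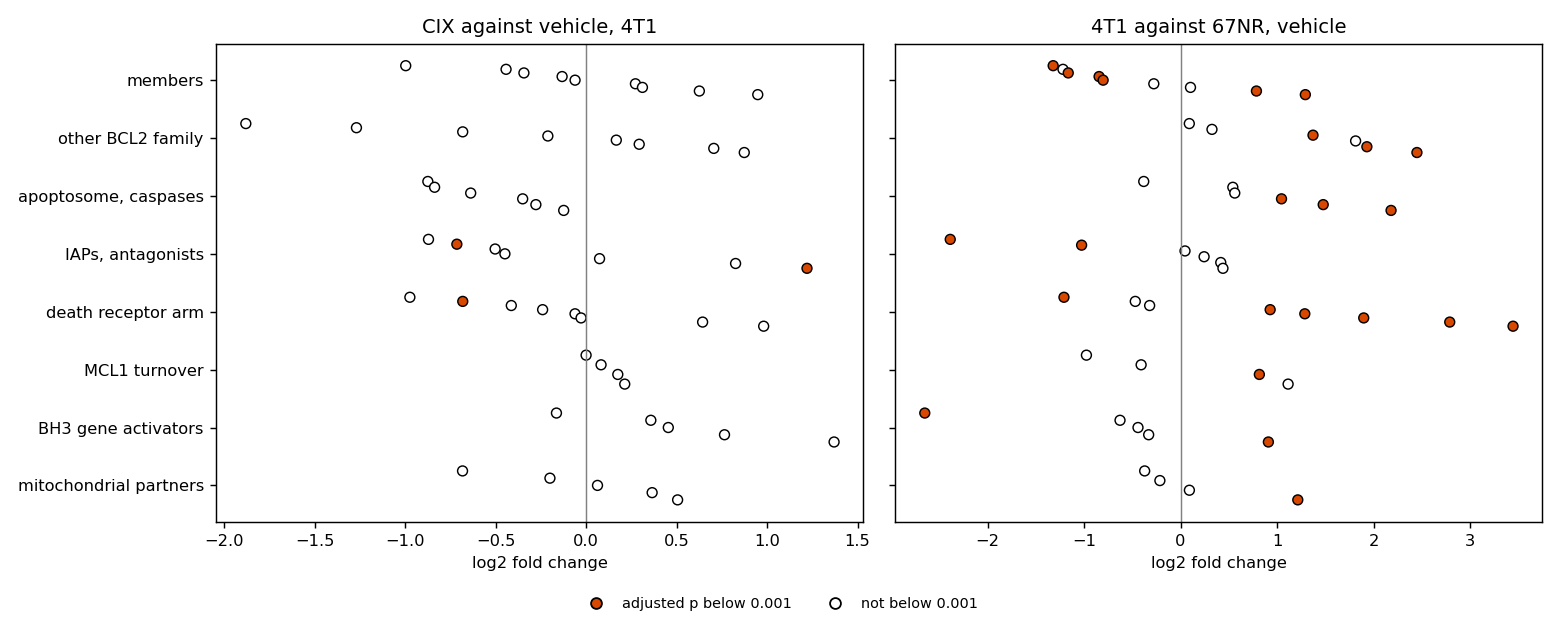
Log2 fold change of each tested gene by list, 1 point per gene, for CIX against vehicle in 4T1 cells (left) and for vehicle treated 4T1 against 67NR cells (right). Filled points passed an adjusted p of 0.001 by limma-voom; on the left these are Birc5 (1.22), Diablo (-0.72) and Cflar (-0.68), and on the right they include 6 members and 6 of the 8 death receptor genes.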

How the data were processed

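Messenger RNA of 16 samples was sequenced as stranded poly-A libraries. Reads were quantified by the authors with Salmon 0.12 (per the labels) and tximport. The deposited values are unnormalized estimated counts for Ensembl mouse gene identifiers. The submitters' processing notes list GRCh38, although the identifiers are those of mouse GRCm38. The scaling used by tximport is not given in the sources used here, and 0.0436% of the values above 0 were whole (tolerance 1e-06).

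Counts were rounded. TPM was approximated with mean transcript lengths of GENCODE M21, which held 32832 of the 33072 genes. A gene was dropped from a comparison where over 3 samples had less than 1 TPM (from the interaction, only if so in both lines). Testing used limma-voom and TMM factors (limma 3.58.1, edgeR 4.0.16, R 4.3.3) with Benjamini-Hochberg adjustment over all genes tested and a threshold of 0.001. Alternative settings were the quasi-likelihood test of edgeR, DESeq2 1.42.0, other scalings, filters and thresholds, limma on log2(TPM + 1), a common fit of all samples, other transcript lengths and leaving out each sample. The scripts were tested on simulated data.

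All 10 members are named, as are genes of the further family list that passed the filter, and at most 3 called genes of each other list by size of change. Some genes that this rule names are not reported here. The members and lists were chosen with earlier results of these data known. Shared sequence was counted in words of 31 bases over all transcripts. The floor of 3 counts covers counting error only. Promoter windows came from RefSeq on GRCm38.p6. No batch is labelled, and replicates are separate samples of cultured lines.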

Additional observations from a re-analysis of the deposited data

Results flagged for a closer look

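The response to CIX differed between 4T1 and 67NR cells, by the interaction term of limma-voom at an adjusted p below 0.001, for the member Bcl2 (log2 difference 1.204) and for Birc5 (1.88) and Htra2 (0.97), with the adjusted p-values given above. Fas also passed that threshold (2.09), but it failed the filter on low values within 67NR cells (10 to 15 estimated counts under CIX) and entered only through its level in 4T1 cells.

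Within the groups of 4, a sample stood apart from the other 3 by Dixon's 95% criterion for the gap to the nearest sample in 10 of 128 groups of 32 genes examined, where chance gives about 6.4. For the members these were Bax in 4T1 vehicle sample 11 (163.5 CPM, others 78.8 to 88.6), Bcl2l11 in 4T1 vehicle sample 15 (74.6 CPM, others 60.8 to 62.7) and Pmaip1 in 4T1 vehicle sample 3 (0 CPM, others 0.0821 to 0.0873), the last within the counting floor. For the genes around the family they were Bok in 4T1 CIX sample 4 (49.9 CPM), Tradd in 4T1 CIX sample 16 (23.1 CPM), Foxo3 in 4T1 vehicle sample 3 (38.0 CPM), Opa1 in 67NR CIX sample 10 (92.8 CPM), and Diablo (26.4 CPM), Fas (0.413 CPM) and Trp53 (172.9 CPM) in 67NR CIX sample 6. In 67NR CIX sample 6 all 3 genes named were the lowest of their group.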

How the results depend on the processing

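Between the vehicle treated lines, 5 to 7 members were called under every alternative, and 4 to 6 when 1 sample was left out. In 4T1 cells the number called under CIX was 0, but 4 at an adjusted p below 0.05, 2 with DESeq2 and 2 with all 16 samples in a common fit (Bcl2 and Bid, limma-voom adjusted p = 8.17e-05 and 2.82e-05), and 0 to 1 when 1 sample was left out. In 67NR cells it was 3 at 0.05 and otherwise 0. For the difference between the responses it was 2 at 0.05, 2 with DESeq2, 0 with limma on log2(TPM + 1) (Bcl2 adjusted p = 0.00144) and 0 without 4T1 vehicle 11 and 67NR vehicle 13 together (Bcl2 1.17, adjusted p = 0.00134, chosen after seeing the data), and 0 to 2 when 1 sample was left out. Signs turned only for uncalled values: Bax under CIX in 4T1 cells ranged from -0.17 to 0.17 and Bid in 67NR cells from -0.10 to 0.000868 without 1 sample, the interaction of Bcl2l1 was -0.0161 on log2(TPM + 1), and Bcl2l2 between the lines ranged from -0.0114 to 0.28 without 1 sample. The causes were not tested. Over all genes, the counts called were 1086, 45, 991 and 4418 (4T1, 67NR, interaction, lines), against 3095, 1039, 1977 and 5736 with DESeq2 and 4979, 2055, 3699 and 7442 at 0.05. The common fit gave 2677 in 4T1 and 151 in 67NR cells, and log2(TPM + 1) gave 27 in 67NR cells. Without 1 sample the counts were 269 to 974, 0 to 77, 652 to 1047 and 3496 to 4367. No scaling moved the median of all genes by over 0.1. Library size alone and log2(TPM + 1) moved the higher share of calls in 4T1 cells from 623 of 1086 to 510 of 1040 and 461 of 1011, and library size alone moved it in 67NR cells from 21 of 45 to 14 of 39. Depth limits Pmaip1. No paired analysis was run, since the groups share no replicate numbers in the labels. Whether samples of different groups were prepared together is not labelled.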
